A study of Mus musculus with 15 samples.

Results

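AtT-20 is an established mouse line of pituitary corticotrophs, the anterior pituitary cells that make the adrenocorticotropic hormone precursor Pomc. The samples described here are the AtT-20 arrays at 4 h of 100 nM dexamethasone and at 0 h, 2 arrays each, which makes 4 of the 15 arrays of the study. They were chosen by line and time as the sample titles give them. Cells of the strain LAF1 were held in charcoal-treated serum for 48 h, then received dexamethasone, a synthetic glucocorticoid. The 0 h cells had the same serum and no dexamethasone, and the labels call them both untreated and vehicle treated. The remaining arrays held AtT-20 cells at 2 h (2 arrays) and 8 h (1 array) and 3134 cells, a mouse mammary adenocarcinoma line, at 0, 2, 4 and 8 h of the same dose. Nothing in the labels tells whether the 2 arrays of a group came from different dishes, and the p-values therefore reflect array-to-array spread alone, which may be technical. No AtT-20 array held cells kept for 4 h without the hormone, so the hormone and the time in culture cannot be told apart.

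Glucocorticoids bind the glucocorticoid receptor, which is encoded by Nr3c1 and held in the cytoplasm by chaperones and by cochaperones such as Fkbp5. The bound receptor enters the nucleus and raises or lowers the transcription of its targets, some of which, such as Fkbp5, Per1 and Tsc22d3, rise in many cell types. In the body, corticotrophs are the cells on which glucocorticoids act to restrain Pomc expression and hormone release, the negative feedback arm of the stress axis.

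RNA was hybridised to Affymetrix mouse exon arrays. A gene value here is the median log2 value over the probesets of a gene after quantile normalization, and it compares arrays, not genes. A gene was tested if its mean reached log2 6.59, the 40th percentile of all values, in at least 1 of the 8 line and time groups, which left 9927 of 15041 genes. Arrays of each line fall into a lower and a higher series of serial numbers in the titles, called run 1 and run 2 here, and each run held 1 array of each AtT-20 time up to 4 h. Changes were fitted with limma with the run as a block. A gene is called where its adjusted p is under 0.05 over all tested genes, and only called genes are said to have risen or fallen. The number of arrays limits the precision, and the median standard error of the 4 h change was 0.153 on the log2 scale.

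The arrays carried corticotroph transcripts. Pomc stood at log2 13.48 and 12.98 at 0 h and at 13.38 and 13.15 at 4 h in runs 1 and 2, against a mean of 5.20 in 3134 cells at 0 h. The corticotroph transcription factor Tbx19 had a mean of 12.02 at 0 h in AtT-20 and 4.81 in 3134, and the prohormone convertase Pcsk1 stood at 12.66 and 12.45 in the AtT-20 arrays at 0 h. Of 16 markers of other pituitary cell types with a value, 3 reached log2 6.59 at 0 h and 4 at 4 h. The hormone genes Gh, Prl, Tshb, Lhb, Fshb and Cga were below it. None of 14 immune and endothelial markers reached that level at 0 or 4 h. The mean value of the epithelial list was 7.60 and 7.28 at 0 h and 7.61 and 7.55 at 4 h, and that of the 13 fibroblast markers was 5.28 and 5.45 at 0 h and 5.23 and 5.37 at 4 h.

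After 4 h of dexamethasone, 86 genes had changed (0.866% of 9927 tested), 58 upward (0.584%) and 28 downward (0.282%). The rises included Arhgef3, Mdm1, the kinase Sgk1, the sestrin Sesn1, the enzyme Tat and the clock gene Per1. The median fold was 2.13 among the rises (range 1.56 to 7.56) and 1.74 among the falls (range 1.59 to 3.47), and 34 rises but only 3 falls reached 2-fold. Both 4 h arrays lay above both 0 h arrays for 56 of the 58 rises, against 9.71% of all tested genes, and below for 24 of the 28 falls, against 11.5%. The calls were made from these same arrays, so the separation is no separate evidence for them. At an unadjusted p under 0.05, 887 genes differed. Without the run as a block 17 genes were called (0.171%), 15 of them upward (0.151%) and 2 downward (0.0201%). Fits that left out 1 compared array called 33 genes without the 4 h array of run 1, 46 without that of run 2, 54 without the 0 h array of run 1 and 44 without that of run 2. Of the 86 genes, 18 rises and 2 falls were called in each of these 4 fits, and 18 rises and 18 falls in none. With the 7 AtT-20 arrays normalized alone, the split was 50 upward to 9 downward. It was 35 to 2 with the 7 AtT-20 arrays fitted alone and 33 to 2 with the 4 compared arrays alone. Without the filter on dim genes it was 28 to 2, and with the mean over probesets 121 to 48. Of the 86 genes, 34 rises and 2 falls were called with the 7 AtT-20 arrays fitted alone.

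**Figure D1:**
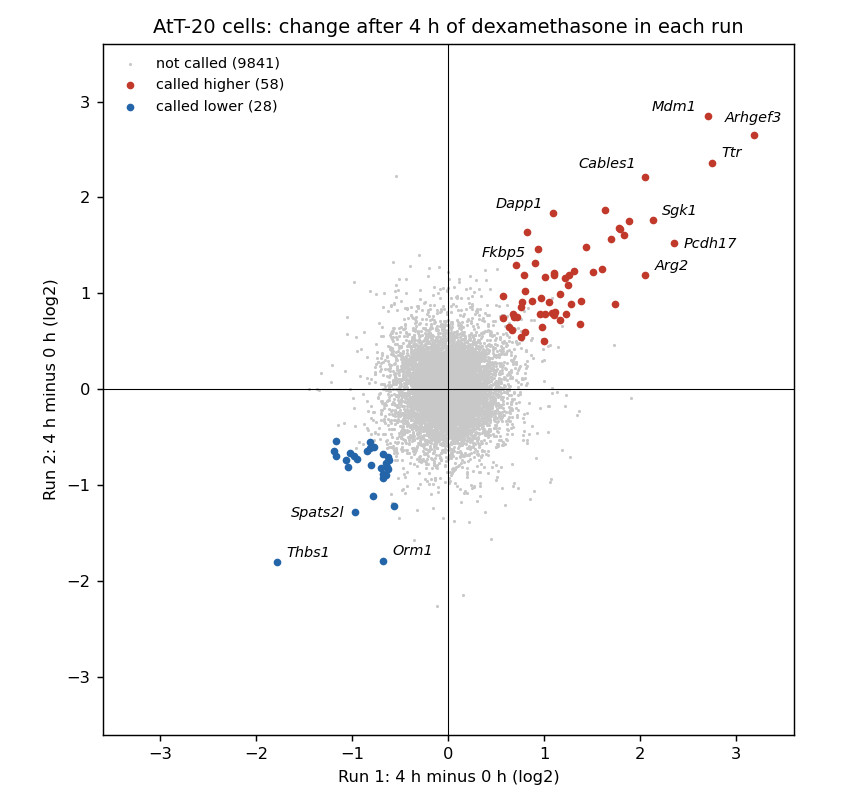
Each point is 1 of the 9927 tested genes. The x axis gives the 4 h minus 0 h difference in run 1 and the y axis that in run 2, both in log2 units. The 58 genes called higher (red) lie in the upper right and the 28 called lower (blue) in the lower left, while over all genes the differences of the 2 runs had a Pearson correlation of 0.123.

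Sgk1, the serum and glucocorticoid regulated kinase, which phosphorylates channel and FOXO regulators, is a classical receptor target. Its value was 7.67 and 7.69 in the 0 h arrays of runs 1 and 2 and 9.81 and 9.46 in the 4 h arrays. Both treated arrays lay above both controls, which the rule for the largest rises required. The rise was 3.87-fold (log2 1.95 ± 0.176, SE, adjusted p = 0.00012). Promoter sequence is shown for Sgk1 because it held the full glucocorticoid response element, for Sqor because it rose late and held a half-site, and for Mdm1 because it had the smallest adjusted p and held neither. The runs below are the 250 bases before an annotated start (RefSeq, GRCm38.p6), on the + strand, at chr10:21993640-21993889, chr2:122771463-122771712 and chr10:118141537-118141786. Capitals mark the full element in Sgk1 and the half-site in Sqor.
Sgk1: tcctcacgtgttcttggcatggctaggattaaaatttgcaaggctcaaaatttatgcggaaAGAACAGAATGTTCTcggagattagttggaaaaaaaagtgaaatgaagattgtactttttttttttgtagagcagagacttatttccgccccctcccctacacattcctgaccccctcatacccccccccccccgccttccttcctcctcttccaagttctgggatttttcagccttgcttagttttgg
Sqor: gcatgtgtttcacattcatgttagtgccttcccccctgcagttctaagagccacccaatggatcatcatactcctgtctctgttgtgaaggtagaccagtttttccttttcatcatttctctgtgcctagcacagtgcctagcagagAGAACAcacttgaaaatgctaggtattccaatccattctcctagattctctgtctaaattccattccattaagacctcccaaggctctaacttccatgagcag
Mdm1: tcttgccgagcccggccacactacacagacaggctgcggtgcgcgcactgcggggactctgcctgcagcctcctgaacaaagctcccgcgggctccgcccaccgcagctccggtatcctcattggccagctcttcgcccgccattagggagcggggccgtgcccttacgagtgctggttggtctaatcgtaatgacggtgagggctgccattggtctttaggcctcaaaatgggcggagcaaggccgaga

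Windows from 250 bases before to 50 bases after each start were searched on both strands, for 45 of the 58 rises, 18 of the 28 falls and 8075 tested genes that had one. The full element, AGAACA and its inverted copy TGTTCT with 3 bases between them, was in 3 of 32851 windows (0.00913%) and, among the tested genes, in Sgk1 only, where its first base was 189 bases before the start of 1 of 6 windows. The looser core, GNACA and TGTNC with 3 bases between them, which the full element contains, was in 31 tested genes (0.384%), and Sgk1 was the 1 gene among the rises. The half-site AGAACA, also contained in the full element, was in 7 of 45 rises (15.6%), 1 of 18 falls (5.56%) and 14.2% of tested genes. The genes that rose and held it were Arhgef3, Bcl6, Calhm2, Dapp1, Sgk1, Sqor and Tm4sf1. The AP-1 site TGANTCA was in 3 of 45 rises and 3 of 18 falls (6.02% of tested genes), and the cAMP response element TGACGTCA was in 1 of 45 rises, Slc25a25, and 0 of 18 falls (3.62%). These letters are matches in short windows only, and receptor binding was not measured here.

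The 2 largest rises were those of Arhgef3 and Mdm1. Arhgef3, a guanine nucleotide exchange factor, went from 5.70 and 5.77 at 0 h to 8.88 and 8.42 at 4 h. The 4 h arrays were far above the controls, a 7.56-fold rise (log2 2.92 ± 0.174, SE, adjusted p = 4.86e-06), and since the 0 h arrays were below log2 6.59 the size of this rise is limited by background. Mdm1, a microtubule-binding protein of centrioles, went from 8.07 and 8.26 to 10.77 and 11.11, a 6.84-fold rise (log2 2.77 ± 0.123, SE, adjusted p = 3.05e-07). All 18 of its probesets were higher at 4 h in both runs, as were 13 of the 15 probesets of Arhgef3.

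Cables1 and Pcdh17 also rose. Cables1, which links cyclin-dependent kinases to Abl, stood at 7.17 and 6.41 at 0 h and at 9.23 and 8.62 at 4 h (4.38-fold, log2 2.13 ± 0.179, SE, adjusted p = 6.82e-05). The protocadherin Pcdh17, an adhesion molecule, went from 5.80 and 6.09 to 8.16 and 7.61 (3.84-fold, adjusted p = 0.000144). In both genes the 4 h arrays cleared the 0 h arrays by more than the difference between runs. Cables1 was the 1 called gene of 35 tested cell cycle and replication genes, where 0.866% of all tested genes were called. The median change of these 35 was -0.02 log2 units, beside -0.0094 over all tested genes.

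The mTORC1 inhibitors Sesn1 and Ddit4 rose. Sesn1, a sestrin that restrains mTORC1, stood at 7.12 and 7.25 at 0 h and was 1.88 and 1.75 higher at 4 h in runs 1 and 2 (3.52-fold, log2 1.81 ± 0.146, SE, adjusted p = 5.93e-05). Ddit4, another inhibitor of mTORC1, stood at 9.55 and 9.46 at 0 h and at 10.63 and 10.26 at 4 h (1.92-fold, adjusted p = 0.00638). With Sgk1 they were the 3 called genes of 26 in the insulin, FOXO and mTOR list (median 0.02, beside 0.584% of all tested genes called higher), and Sesn1 was the 1 called gene of 26 in the p53, growth arrest and survival list (median 0.09). The insulin receptor substrate Irs1 was at 8.78 and 8.76 at 0 h and at 8.25 and 8.42 at 4 h, which did not pass (adjusted p = 0.192). The Ddit4 call was lost without the run block (adjusted p = 0.12) and without either run 1 array (adjusted p = 0.106 without the 4 h array and 0.0891 without the 0 h array).

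Tat, Klf15, Sqor, Nqo1 and Arg2, which act in metabolism, rose, while none of the 27 genes of the fuel and lipid metabolism list was called by limma. Tat, tyrosine aminotransferase and a textbook glucocorticoid target of liver, went from 7.96 and 7.64 to 9.75 and 9.31 (3.31-fold, log2 1.73 ± 0.138, SE, adjusted p = 5.93e-05), and all 14 of its probesets were higher in both runs. Klf15, a zinc finger factor that controls amino acid and glucose metabolism, went from 7.29 and 6.91 to 8.92 and 8.78 (3.37-fold, adjusted p = 0.00203). Both genes had treated arrays well clear of the controls, where the rule for the largest rises required that they not overlap. Sqor, which oxidises hydrogen sulfide in mitochondria, went from 5.26 and 4.23 to 7.04 and 5.91, so that run 1 stood above run 2 at both times (3.32-fold, adjusted p = 0.000288). Its means at 0 h and at 4 h were below log2 6.59, and so were the 0 h arrays of Pcdh17 and Arg2, so these folds are limited by background as well. Nqo1, a quinone reductase, stood at 4.17 and 3.64 at 0 h and was 1.83 and 1.61 higher at 4 h (3.30-fold, adjusted p = 6.82e-05). It was below log2 6.59 in all 4 of these arrays, where a fold is limited by background. Arg2, the mitochondrial arginase, went from 5.45 and 5.49 to 7.51 and 6.68 (3.08-fold, adjusted p = 0.00538).

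Ttr, transthyretin, which carries thyroxine and retinol-binding protein, went from 7.76 and 7.77 to 10.51 and 10.13. This was a 5.88-fold rise (log2 2.56 ± 0.188, SE, adjusted p = 3.57e-05), and all 7 of its probesets were higher in both runs. Rasd1, the dexamethasone-induced Ras protein, went from 7.93 and 8.45 to 9.63 and 10.01 (3.10-fold, log2 1.63 ± 0.14, SE, adjusted p = 7.5e-05). Dapp1, an adaptor that binds phosphoinositides, went from 6.17 and 6.63 to 7.26 and 8.47 (2.76-fold, adjusted p = 0.00638). Its rise was larger in run 2. Chsy3, a chondroitin synthase, went from 6.35 and 5.84 to 7.79 and 7.32 (2.75-fold, adjusted p = 0.021).

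Of these 15 largest rises, 9 were also called without the run as a block. The other 6 were not, with adjusted p values of 0.594 for Ttr, 0.508 for Sqor and Dapp1, 0.319 for Rasd1, 0.0821 for Arg2 and 0.311 for Chsy3. Leaving out 1 compared array ended 3 of the 15 calls. Arg2 was lost without the 4 h array (adjusted p = 0.0904) or the 0 h array (0.0891) of run 1, Dapp1 without the 4 h array (0.147) or the 0 h array (0.148) of run 2, and Chsy3 without any 1 of the 4 (0.0991 to 0.236).

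**Figure D2:**
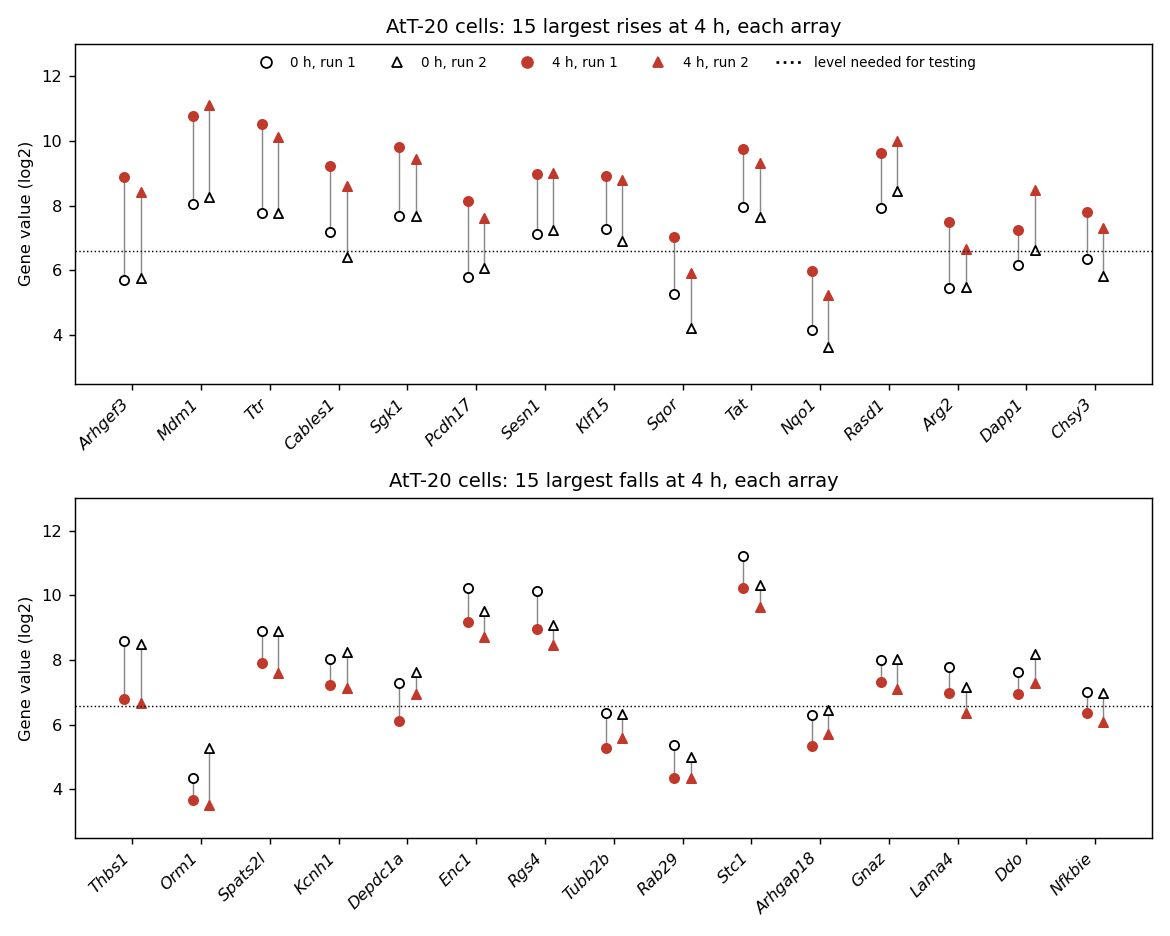
Gene values (log2, y axis) in each of the 4 AtT-20 arrays for the 15 largest rises (upper panel) and the 15 largest falls (lower panel) among called genes whose 0 h and 4 h arrays did not overlap. Open symbols are 0 h and filled symbols 4 h, circles are run 1 and triangles run 2, lines join arrays of a run, and the dotted line is log2 6.59. Nqo1, Orm1, Tubb2b, Rab29 and Arhgap18 lie below the dotted line in all 4 arrays.

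Known glucocorticoid targets rose. Of 37 tested members of the list of glucocorticoid-induced genes, 13 rose and none fell (0.584% and 0.282% of all tested genes). At an unadjusted p under 0.05, 23 were higher, beside 887 of all 9927 tested genes that differed in either direction. The 13 were Arrdc2, Bcl6, Ddit4, Fkbp5, Hif3a, Per1, Per2, Rasd1, Rgs2, Sesn1, Sgk1, Tat and Usp2, and 7 members were called without the run block. The median change over the list was 0.50 log2 units. Fkbp5 went from 9.76 and 9.58 to 10.66 and 10.91, a 2.16-fold rise (log2 1.11 ± 0.139, SE, adjusted p = 0.0019) seen in all 14 of its probesets. Tsc22d3, which encodes the glucocorticoid-induced leucine zipper, had values of 7.60 and 7.35 at 0 h and 8.42 and 7.64 at 4 h. Both were above the controls, but the 2 runs differed and the change of 0.56 ± 0.198 did not pass (adjusted p = 0.366). The phosphatase Dusp1 (0.39 ± 0.175, adjusted p = 0.532) and the metallothionein Mt2 (0.70 ± 0.18, adjusted p = 0.137) did not pass either.

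The clock list had 3 called genes of 16, all upward, with a median of 0.10, where 0.584% of all tested genes were called higher. Per1, a repressor of the clock with receptor sites near its gene, went from 8.64 and 8.45 to 9.89 and 9.54 (2.25-fold, log2 1.17 ± 0.131, SE, adjusted p = 0.000778), and 31 of its 33 probesets were higher in both runs. Per2 went from 6.95 and 6.92 to 7.74 and 7.51 (1.62-fold, adjusted p = 0.0389), and Usp2, a ubiquitin protease of clock proteins, from 8.08 and 7.94 to 9.18 and 9.16 (2.23-fold, adjusted p = 0.00122). The arrays of the 2 times did not overlap in any of the 3. Cry2, another clock repressor, went from 8.63 and 8.69 to 9.61 and 9.22, and its change of 0.75 ± 0.16 just missed the threshold (adjusted p = 0.0527). The call of Per2 was lost without the run block (adjusted p = 0.476) and without any 1 of the compared arrays (adjusted p up to 0.247).

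Feedback regulators of MAP kinases and G proteins moved in both directions, with 3 of 22 called higher, 1 called lower and a median of 0.06, beside 0.584% and 0.282% of all tested genes. Besides Rasd1, Rgs2, which limits Gq signalling, went from 5.62 and 6.16 to 6.79 and 6.89 (1.92-fold, adjusted p = 0.0106). Dusp4, a phosphatase of ERK kinases, went from 9.51 and 8.87 to 10.23 and 9.63 (1.67-fold, adjusted p = 0.0367). Rgs4, another inhibitor of G protein signalling, went the other way, from 10.14 and 9.09 to 8.95 and 8.45 (1.89-fold lower, adjusted p = 0.038). None of these 4 was called without the run block (adjusted p = 0.319 for Rasd1, 0.607 for Rgs2, 0.874 for Dusp4 and 0.812 for Rgs4). Rgs2 was also lost without either run 1 array (adjusted p = 0.141 and 0.126), Rgs4 without any array but the 0 h array of run 2 (0.198 to 0.319) and Dusp4 without any 1 of the 4 (0.109 to 0.356).

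Further rises included those of Slc25a25, Slc25a32, Prokr1, Calca and Noct. Slc25a25, the mitochondrial ATP-magnesium/phosphate carrier, went from 9.10 and 8.90 to 10.31 and 10.07 (2.28-fold, adjusted p = 0.000637), and Slc25a32, a mitochondrial folate and FAD carrier, from 8.39 and 8.64 to 9.90 and 9.86 (2.58-fold, adjusted p = 0.0041). Both carriers had close values within each time. The prokineticin receptor Prokr1 went from 7.31 and 6.50 to 8.57 and 7.69 (2.33-fold, adjusted p = 0.00178), and Calca, the precursor of calcitonin and of calcitonin gene-related peptide, from 7.87 and 7.26 to 9.04 and 8.26 (2.12-fold, adjusted p = 0.0226). Noct, the phosphatase nocturnin, went from 8.66 and 8.73 to 9.98 and 9.97 (2.42-fold, adjusted p = 0.00257). These genes and the others of this paragraph lie outside the rule for named genes and were chosen after their values were seen. Of these 5, only Slc25a25 was called without the run block (adjusted p = 0.0312), and the others had 0.0743 (Slc25a32), 0.406 (Prokr1), 0.611 (Calca) and 0.522 (Noct). The symbol Dbc1, also among the calls (2.70-fold higher), is shared by more than 1 gene in older annotation and is given here as the platform gives it.

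Thbs1, thrombospondin 1, a matrix glycoprotein that activates latent TGF-beta, had the largest fall. It went from 8.59 and 8.49 at 0 h to 6.81 and 6.68 at 4 h, 3.47-fold lower (log2 -1.79 ± 0.171, SE, adjusted p = 0.000177), and all 27 of its probesets were lower in both runs. It was the 1 called gene of 31 in the YAP, TGF-beta and matrix list, of which 17 were below log2 6.59 in AtT-20 at both times and whose median was -0.04. Over all 9927 tested genes, 0.866% were called and 997 were below log2 6.59 in AtT-20 at both times. Amotl2, a YAP target of the same list, was at 8.26 and 8.39 and then at 7.93 and 7.13, which did not pass (adjusted p = 0.0861). Spats2l went from 8.88 and 8.89 to 7.91 and 7.61 (2.18-fold lower, log2 -1.13 ± 0.136, SE, adjusted p = 0.0015). These were the 2 falls called without the run as a block (adjusted p = 0.00167 and 0.0182, against 0.319 to 1 for the other 26) and called in each of the 4 fits that left out a compared array.

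Other falls were smaller, between 1.59-fold and 1.93-fold except for Orm1. Kcnh1, a voltage-gated potassium channel, went from 8.02 and 8.24 to 7.23 and 7.13 (1.93-fold lower, adjusted p = 0.029). Enc1, an actin-binding kelch protein, went from 10.23 and 9.53 to 9.18 and 8.72 (1.90-fold lower, adjusted p = 0.0325). Gnaz, the alpha subunit of Gz, which inhibits adenylyl cyclase, went from 8.00 and 8.03 to 7.32 and 7.11 (1.75-fold lower, adjusted p = 0.0418). In each of the 3 genes both treated arrays lay below both controls, which the rule for the largest falls required. The secreted glycoprotein Stc1 went from 11.22 and 10.33 to 10.23 and 9.64 (1.79-fold lower, adjusted p = 0.029), so that its 4 h array of run 1 was close to its 0 h array of run 2. The laminin chain Lama4 (1.74-fold lower, adjusted p = 0.0185), the D-aspartate oxidase Ddo (1.72-fold lower, adjusted p = 0.041) and Depdc1a (1.91-fold lower, adjusted p = 0.0409) fell by similar amounts. The fall of Depdc1a rests on the gene median, since of its 5 probesets 1 was lower and 2 were higher in both runs, with a median probeset difference of 0.03. Nfkbie, an inhibitor of NF-kB, went from 7.02 and 6.98 to 6.37 and 6.09 (1.71-fold lower, adjusted p = 0.0365).

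The beta-tubulin Tubb2b, the small GTPase Rab29, the GTPase activating protein Arhgap18 and the acute phase protein Orm1 also fell, but were below log2 6.59 in every compared array, where a change is close to background. Orm1 went from 4.36 and 5.29 to 3.68 and 3.51 (2.35-fold lower, adjusted p = 0.023), and 3 of its 7 probesets were lower in both runs, as were 3 of 7 for Rab29 and 3 of 7 for Tubb2b. Of all 28 falls, 9 were below that level at both times, against 6 of the 58 rises and 997 of the 9927 tested genes. Of the 15 largest falls whose 0 h and 4 h arrays did not overlap, 7 were called in none of the 4 fits that left out a compared array. These were Kcnh1, Enc1, Tubb2b, Gnaz, Lama4, Ddo and Nfkbie. Orm1 was lost without the 4 h array (adjusted p = 0.283) or the 0 h array (0.309) of run 2. Rab29, Stc1 and Rgs4 were called only without the 0 h array of run 2, and Depdc1a and Arhgap18 only without the 4 h array of run 2.

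No change of Pomc was detectable at 4 h. Its change was 0.04 ± 0.201 (SE, adjusted p = 0.982), the arrays of the 2 times overlapped, and 0 of its 5 probesets moved the same way in both runs. A p that misses the threshold does not show that Pomc was unchanged. None of 19 tested genes of corticotroph identity and Pomc regulation was called by limma, with a median of -0.09. At an unadjusted p under 0.05, 3 were lower, beside 887 of all 9927 tested genes that differed in either direction. Among the 19, the orphan receptor Nr4a3 was at 6.80 and 6.57 and then at 6.09 and 6.05 (-0.61 ± 0.158, adjusted p = 0.142). Nr3c1, the receptor itself, was at 8.86 and 9.01 at 0 h and at 8.36 and 8.50 at 4 h. Both 4 h arrays were lower, by 0.50 in run 1 and 0.51 in run 2, but the change of -0.50 ± 0.139 did not pass (adjusted p = 0.18). Of the 11 probesets of Nr3c1, 5 were lower and 0 higher in both runs, with a median probeset difference of -0.22. Socs3, which limits cytokine signals to Pomc, and the lineage factor Pitx1 had changes of -0.35 (adjusted p = 0.446) and -0.33 (adjusted p = 0.605).

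Of 25 tested genes of peptide processing and secretory granules, none was called by limma, with a median of 0.11. At an unadjusted p under 0.05, 3 were higher, beside 887 of all 9927 tested genes that differed in either direction. Syt4, a synaptotagmin of secretory vesicles, was at 11.35 and 11.04 at 0 h and at 12.43 and 11.99 at 4 h. Both 4 h arrays were above both controls, and the change of 1.02 ± 0.239 did not pass in the fit over 15 arrays (adjusted p = 0.0907), while it did where only the AtT-20 arrays were fitted (adjusted p = 0.0235 over 7 and 0.0356 over 4). Pcsk2, a prohormone convertase, was at 7.04 and 6.07 and then at 7.80 and 6.81 (0.75 ± 0.168, adjusted p = 0.0731). Pcsk1 (0.06, adjusted p = 0.963) and the carboxypeptidase Cpe (0.06, adjusted p = 0.964) had changes within their standard errors.

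Fkbp5 was the 1 called gene of 17 in the list of the receptor with its chaperones and cofactors (median -0.04), beside 0.866% of all tested genes. No gene was called by limma among 22 of cAMP and calcium signalling (1 at an unadjusted p under 0.05), 16 ion channels (0), 21 immediate early genes (2), 27 of fuel and lipid metabolism (3), 22 of cholesterol synthesis (0), 24 of the unfolded protein and amino acid response (0) and 13 housekeeping genes (0). Their medians lay between -0.12 and 0.06 log2 units. Over all 9927 tested genes, 887 had an unadjusted p under 0.05. None was called either among the tested markers of other pituitary cell types (4 genes, 0 at an unadjusted p under 0.05), epithelium (7, 1), fibroblasts (9, 1) and immune and endothelial cells (4, 0), whose medians were 0.19, 0.01, 0.11 and -0.01. Nqo1 was the 1 called gene of 23 in the NRF2 and metal list (median 0.04), beside 0.866% of all tested genes. In the list of cytokines, chemokines and NF-kB targets, 1 of 19 rose and 1 fell, beside 0.584% and 0.282% of all tested genes, with a median of 0.06. Of these 19 genes, 8 had AtT-20 means below log2 6.59 at both 0 h and 4 h, beside 997 of all 9927 tested genes. The chemokine Ccl3 went from 4.78 and 4.51 to 6.52 and 5.40, below log2 6.59 in all 4 arrays (2.49-fold higher, adjusted p = 0.0041), and Nfkbie fell. Ccl3 was not called without the run block (adjusted p = 0.362) or without either run 1 array (0.0789 and 0.0771).

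**Figure D3:**
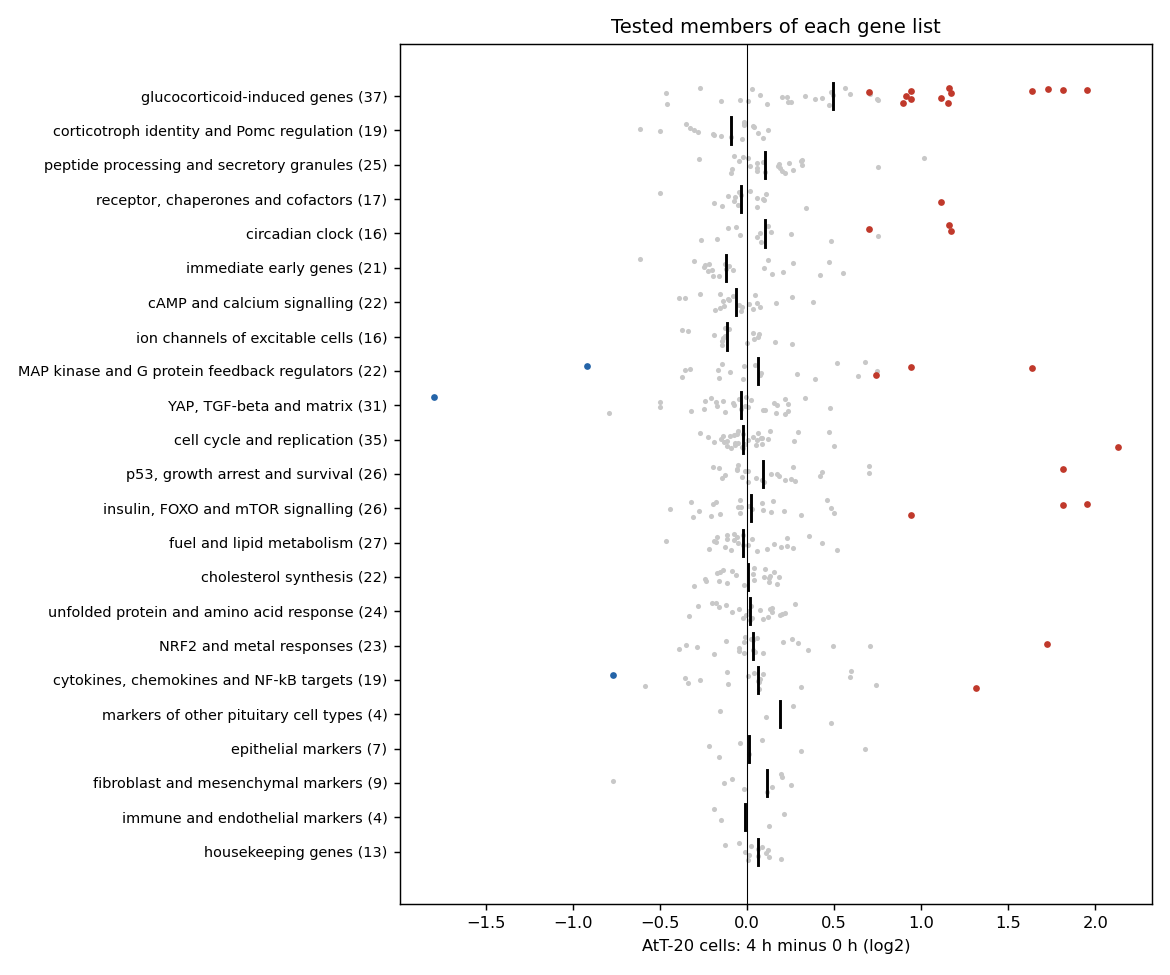
Each point is a tested gene of 1 of 23 lists, with the number tested in parentheses. The x axis is the 4 h minus 0 h change in AtT-20 cells (log2), red points are called higher, blue points called lower, grey points not called, and black bars are list medians. The list of glucocorticoid-induced genes has the median farthest from 0, at 0.50, and 13 of its 37 members are red.

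The 2 h and 4 h comparisons share the 0 h arrays, so their values are given side by side. The genes were chosen by their 4 h values, which favours 4 h in any such setting. At 2 h, 32 genes were called (0.322%), 28 higher (0.282%) and 4 lower (0.0403%), and in the single array at 8 h, 44 were called (0.443%), 36 higher (0.363%) and 8 lower (0.0806%), with the spread taken from the other groups. Among the 58 rises the median change was 0.87 log2 units at 2 h, 1.09 at 4 h and 1.10 at 8 h. Among the 28 falls the medians were -0.38, -0.80 and -0.56. Per1 stood 1.32 above 0 h at 2 h and 1.17 at 4 h, Rasd1 1.99 and 1.63, and Ddit4 1.22 and 0.94. Arhgef3 (2.71 and 2.92), Sgk1 (1.79 and 1.95) and Sesn1 (1.75 and 1.81) were nearly level.

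Tested directly, 4 h against 2 h, 2 genes were higher at 4 h (0.0201% of 9927) and none lower by limma, and 502 genes differed at an unadjusted p under 0.05. Sqor was at 5.62 and 4.50 at 2 h and at 7.04 and 5.91 at 4 h (log2 1.42, adjusted p = 0.0286). Tm4sf1, a membrane protein of the tetraspanin-like L6 family, was at 7.79 and 8.13 at 2 h and at 8.77 and 8.97 at 4 h (log2 0.91, adjusted p = 0.0449). In both genes the 2 h arrays were near the 0 h arrays, which were 5.26 and 4.23 for Sqor and 7.76 and 8.18 for Tm4sf1. Neither was called without the run as a block (0 genes, 140 at an unadjusted p under 0.05) or without any 1 of the 4 arrays compared. Tat (log2 0.54 higher at 4 h than at 2 h, adjusted p = 0.51), Ttr (0.96, adjusted p = 0.27) and Spats2l (-0.80, adjusted p = 0.116) did not pass.

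**Figure D4:**
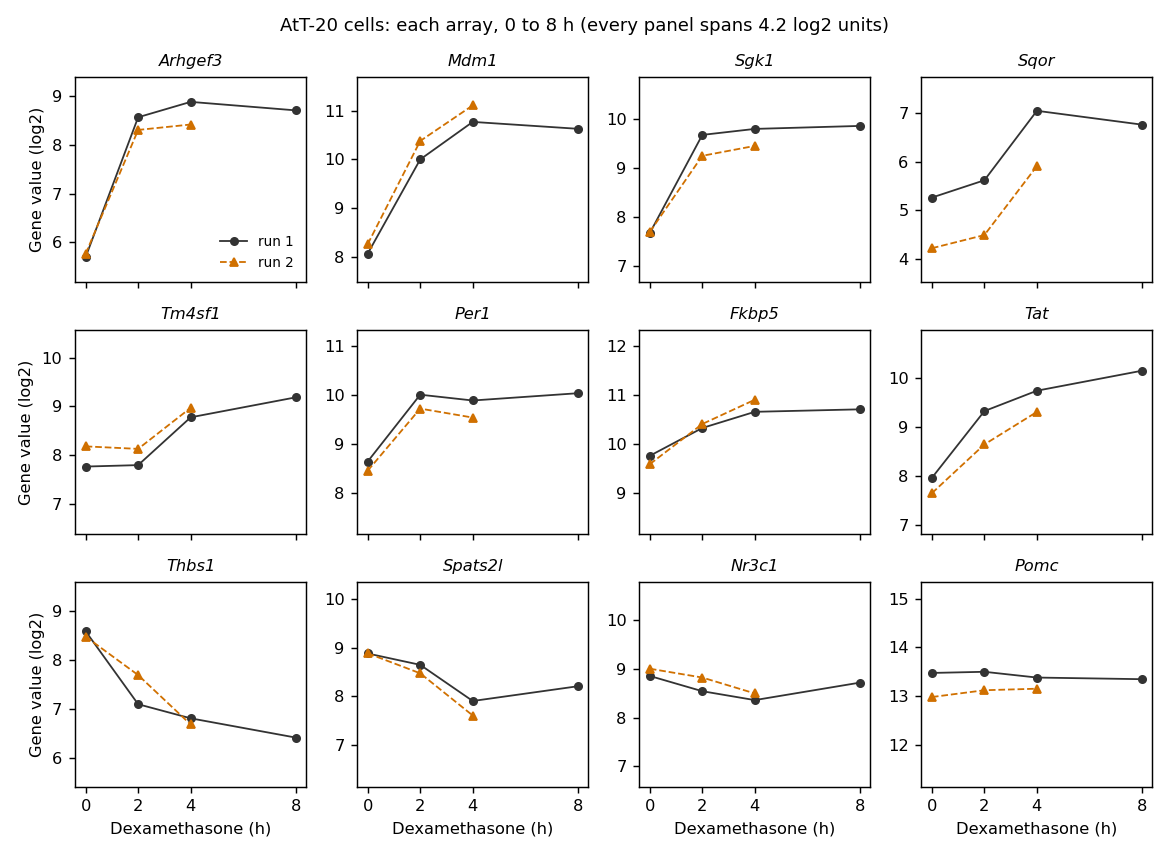
Gene values (log2, y axis) of 12 genes in each AtT-20 array against hours of dexamethasone (x axis), with run 1 as black circles and run 2 as orange triangles. All panels span the same number of log2 units, and only run 1 has an 8 h array. Sqor and Tm4sf1 stay near their 0 h values at 2 h and are higher at 4 h, Thbs1 is lower at each later time in run 1 and at 2 h and 4 h in run 2, and Pomc stays between 12.98 and 13.50.

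The same dose and time in 3134 cells changed 513 genes (5.17% of 9927), and 25 genes were called in both lines, 29.1% of the AtT-20 calls and 4.87% of the 3134 calls. In 18 of the 25 the direction was the same. Tested as a difference between the responses of the lines, 267 genes passed (2.69%), 88 with the higher change in AtT-20 and 179 with the lower. On the deposited scale that split was 70 to 68, and without the run as a block 52 genes passed. Of the 86 AtT-20 calls, 41 (47.7%) had a response that differed from 3134, and 11 of these 41 without the run as a block. The 3134 cells held Nr3c1 at 10.39 and 10.47 at 0 h.

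Some genes rose more in AtT-20 than in 3134. Mdm1 was 2.77 higher at 4 h in AtT-20 and 0.00 different in 3134 (difference 2.78 ± 0.174, SE, adjusted p = 5.77e-06), and Arhgef3 rose by 2.92 against 0.45 (difference 2.47 ± 0.246, adjusted p = 0.000201). Ttr (difference 2.22 ± 0.265), Sqor (2.06 ± 0.246), Pcdh17 (1.92 ± 0.254), Nqo1 (1.91 ± 0.203), Cables1 (1.85 ± 0.253), Tat (1.76 ± 0.195) and Rasd1 (1.62 ± 0.197) likewise changed more in AtT-20, with adjusted p from 0.000307 to 0.00153. None of these 9 was called at 4 h in 3134 cells. Without the run as a block, the differences of Ttr, Sqor, Cables1, Tat and Rasd1 did not pass (adjusted p = 0.0949 for Tat to 0.849 for Ttr). Dusp4, Gas1 and Tm4sf1 were called in opposite directions, higher in AtT-20 and lower in 3134, and Dusp4 had changes of 0.74 and -1.20. Orm1, Nectin1, Lpar6 and Lgi1 were lower in AtT-20 and higher in 3134. The adhesion molecule Nectin1 had changes of -0.67 and 1.26 (difference -1.93 ± 0.188, adjusted p = 0.000199). None of these 7 genes was called in AtT-20 without the run block (adjusted p from 0.406 for Tm4sf1 to 0.9999 for Gas1). As a difference between lines without the block, Dusp4 (adjusted p = 0.029) and Orm1 (0.00151) passed and Tm4sf1 (0.0687) did not. The 0 h and 4 h arrays of Gas1 overlapped in AtT-20. Lpar6 (4.48 and 3.76) and Orm1 (4.82 and 3.59) had AtT-20 means below log2 6.59 at 0 h and 4 h. Both changes are limited by background.

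Several classical targets had a lower change in AtT-20 than in 3134. Fkbp5 changed by 1.11 in AtT-20 and 3.05 in 3134 (difference -1.94 ± 0.197, SE, adjusted p = 0.000231), and Per1 by 1.17 and 2.57 (-1.40 ± 0.185, adjusted p = 0.00126). The arrestin Arrdc2 (1.15 and 2.99), Rgs2 (0.94 and 2.59) and Ddit4 (0.94 and 2.12) also differed between the lines, and so did Tsc22d3 (0.56 and 2.67, difference -2.11 ± 0.279, adjusted p = 0.00126). Without the run as a block, the differences of Ddit4 (adjusted p = 0.0855), Tsc22d3 (0.0942) and Rgs2 (0.117) did not pass and that of Arrdc2 did (0.00788). Over the list of glucocorticoid-induced genes, 25 of 37 were called higher in 3134 at 4 h, where 3.27% of all tested genes were, with a median of 1.49. Of that list, 19 had a lower and 2 a higher change in AtT-20 by the test of the difference, against 1.8% and 0.886% of all tested genes. Of the 37, 8 had AtT-20 means below log2 6.59 at both 0 h and 4 h, where a change is limited by background. The same held for 997 of all 9927 tested genes. Glul, glutamine synthetase (0.23 and 2.58), and Pdk4, a brake on pyruvate oxidation (-0.46 and 3.46), were called in 3134 only, with differences of -2.35 ± 0.171 and -3.92 ± 0.196. Pdk4 and Lcn2 were below log2 6.59 in all AtT-20 arrays compared, and Rgs2 was below it in the AtT-20 arrays at 0 h.

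Other targets had changes of similar size in both lines. Sgk1 changed by 1.95 in AtT-20 and 2.02 in 3134 (difference -0.07 ± 0.249, SE, adjusted p = 0.95), Sesn1 by 1.81 and 1.97 (-0.16 ± 0.206, adjusted p = 0.835) and Klf15 by 1.75 and 1.70 (0.05 ± 0.315, adjusted p = 0.97). A p that misses the threshold does not show that the lines respond alike. Per2 (-0.39 ± 0.198, adjusted p = 0.451), Usp2 (0.46 ± 0.193, adjusted p = 0.328) and Pim3 (0.31 ± 0.22, adjusted p = 0.646) did not pass as differences either. Thbs1 fell in both lines, by -1.79 and -0.93 on the log2 scale, and that difference did not pass (adjusted p = 0.0961).

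**Figure D5:**
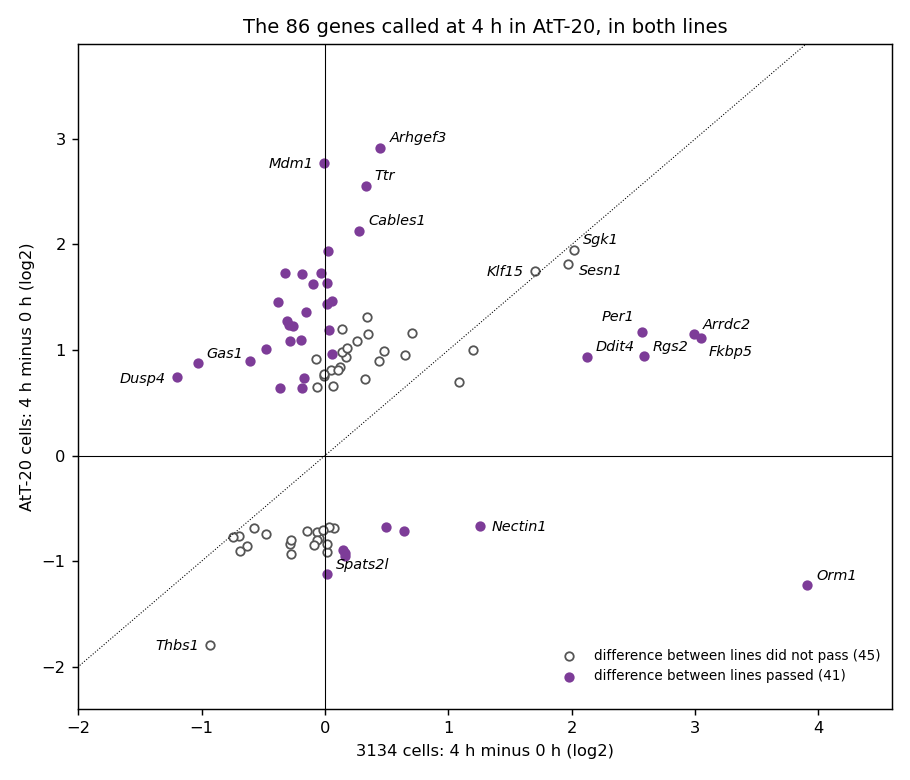
The 86 genes called at 4 h in AtT-20, with the 4 h minus 0 h change in 3134 cells on the x axis and in AtT-20 cells on the y axis (both log2). Filled points are the 41 genes whose response differed between the lines, open points the other 45, and the dotted line marks equal change. Sgk1, Sesn1 and Klf15 lie near that line, Mdm1 and Arhgef3 near a 3134 change of 0, and Fkbp5, Arrdc2 and Per1 to its right.

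The exon probesets were also tested for unequal change within a gene. With 1 spread per gene, 415 of 11438 genes passed (3.63%), and 1745 had an unadjusted p under 0.05. Without the run as a block 40 passed. The 3 leading genes were Ebna1bp2, Mapk9 and Map4k5, each through 1 probeset whose 2 runs were unequal. That probeset differed by 2.18 and 4.15 in runs 1 and 2 for Ebna1bp2, by 1.24 and 4.98 for Mapk9 and by 4.51 and 0.90 for Map4k5, while the gene values changed by 0.02, -0.06 and -0.02. In a test that gave each probeset its own spread, added after the data were seen, no gene passed by limma and 985 had an unadjusted p under 0.05. Sgk1 had the smallest adjusted p there (0.155). Of its 23 probesets 18 were higher at 4 h in both runs, with a median difference of 1.84, and among the 18 that entered this test 3 changed by 0.04, 0.24 and -0.35.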

How the data were processed

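The deposited values are log2 signals per exon probeset and array, which the authors computed with RMA in Affymetrix Expression Console (source: the submitters' processing notes, no version given there). Column medians differed between the runs as deposited (AtT-20 columns 7.51 to 7.86 in run 1 and 6.93 to 7.22 in run 2), so the 15 arrays were quantile normalized. Of 228090 probesets, 207232 had 1 gene symbol in the platform annotation, 3882 several and 16976 none, and the first were used. Symbols were updated through RefSeq (GRCm38.p6): 14055 were current, 2086 updated and 66 kept. The highest correlation between 2 arrays was 0.986, and none was taken for a repeat.

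Genes with at least 3 probesets were fitted on all 15 arrays with lmFit and eBayes of limma 3.58.1 (2-sided, Benjamini-Hochberg adjustment) in R 4.3.3, tables being read with version 1.17.8 of data.table, with the run within each line as a block (5 residual degrees of freedom). The block follows the pairing of arrays by run that was set with the choice of samples. Across genes, deviations of same-run AtT-20 arrays from their group means correlated at 0.556, 0.588 and 0.590. Without the block, 7 degrees of freedom remained. Exons were tested with limma's diffSplice (Simes). The scripts were tested on simulated data.

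The samples, the 24 gene lists and the tests were chosen with earlier results of these data known. The result of 1 list is not reported here. The rule for named genes took the 15 largest rises and the 15 largest falls among called genes whose 4 h arrays both lay on 1 side of both 0 h arrays, up to 5 each way for 4 h against 2 h and for the difference between lines, the exon test's 3 genes of smallest adjusted p, the 4 members of smallest p in every list, and Nr3c1, Fkbp5, Per1, Tsc22d3 and Pomc. Alternatives covered scaling, filters, the gene summary, the arrays fitted, the block and leaving out each array.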

Additional observations from a re-analysis of the deposited data

Results flagged for a closer look

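For 36 named genes the test of the difference between lines found that the 4 h change in AtT-20 cells was not that in 3134 cells (limma, adjusted p under 0.05 over 9927 genes, where 2.69% passed). Values are AtT-20 minus 3134, in log2 units. Without the run as a block 14 of the 36 differences passed, those of Pdk4, Glul, Mdm1, Orm1, Lcn2, Fkbp5, Orm2, Arhgef3, Cxcl5, Pcdh17, Cxcl1, Nqo1, Per1 and Dusp4. The other 22 did not, with adjusted p from 0.0624 (Ccl2) to 0.849 (Ttr) and 1 (Myc), among them Tat (0.0949), Tsc22d3 (0.0942), Ddit4 (0.0855), Rgs2 (0.117), Cables1 (0.203), Mt2 (0.205), Sqor (0.348) and Rasd1 (0.397).

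The change was higher in AtT-20 for genes that rose there, namely Mdm1 (2.78), Arhgef3 (2.47), Ttr (2.22), Sqor (2.06), Dusp4 (1.94), Pcdh17 (1.92), Nqo1 (1.91), Cables1 (1.85), Chsy3 (1.84), Tat (1.76), Arg2 (1.72), Rasd1 (1.62), Tm4sf1 (1.50) and Dapp1 (1.41). It was also higher for the chemokines Ccl2 (4.05), Cxcl5 (2.83), Cxcl3 (2.57) and Cxcl1 (1.93), which fell in 3134 cells, were not called in AtT-20 cells and had 0 h values under log2 6.59 there, and for Myc (0.93).

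The change was lower in AtT-20 for the acute phase genes Orm1 (-5.14), Orm2 (-3.73) and Lcn2 (-3.58), for Pdk4 (-3.92) and Glul (-2.35), and for the metallothioneins Mt2 (-3.23) and Mt1 (-1.37). The same held for the glucocorticoid targets Tsc22d3 (-2.11), Fkbp5 (-1.94), Rgs2 (-1.64), Per1 (-1.40) and Ddit4 (-1.18), and for Spats2l (-1.14), Kcnh1 (-1.11), Gadd45g (-1.10), Enc1 (-1.09) and Nr4a3 (-0.98).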

How the results depend on the processing

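For 4 h against 0 h (86 genes), 32 genes were called on the deposited scale, where the median change of all genes was -0.21 in place of -0.0094, 30 without the filter on dim genes, 169 with the mean over probesets, 37 with the 7 AtT-20 arrays alone, 35 with the 4 compared arrays alone, 17 with no replicate block and 33 to 54 without 1 array. With both the deposited scale and no replicate block, added after seeing the data, limma called 0, with 14 at an unadjusted p under 0.05. Median centring (75), AtT-20 arrays normalized alone (59), the level asked of AtT-20 itself (79), at least 6 probesets (85) and a trended, robust fit (90) stayed within 1.5 times, and 64, 54, 71, 72 and 71 of these were among the 86. For 4 h against 2 h (2 genes), the count was 1 on the deposited scale, with AtT-20 arrays normalized alone and with the 7 AtT-20 arrays alone, 5 with the mean over probesets, and 0 without the filter (752 at an unadjusted p under 0.05), with the level asked of AtT-20 (352), with no replicate block (140) and without each 1 of the arrays (377 to 743). For the difference between lines (267 genes), it was 138 on the deposited scale, 128 without the filter, 165 with the level asked of AtT-20, 527 with the mean over probesets, 52 with no replicate block (13 higher and 39 lower) and 138 to 236 without 1 array. Unequal exon change (415 genes) gave 40 with no replicate block, 87 on the deposited scale, 657 without the filter, 0 with each probeset's own spread (985 unadjusted) and 382 to 2331 without 1 array. The cause of these shifts was not tested. No named gene that was called turned its sign under any alternative run. With the mean over probesets, 11 named genes not called here passed, among them Tsc22d3 (0.62, adjusted p = 0.0182), Syt4, Pcsk2 and Cry2. With 2 arrays a group, and 1 where an array was left out (its spread then being that of the other groups), small changes and those below log2 6.59 are not resolved.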

Other observations

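Some listed markers of epithelial, mesenchymal and other pituitary cells were above log2 6.59 in AtT-20 cells at both times. Of 11 epithelial markers with a value, 6 reached that level at 0 h and 7 at 4 h, and Cdh1 and Epcam did not at either time. The simple epithelial keratins Krt8 and Krt18 stood at log2 11.93 and 11.44 and at 10.23 and 9.70 in the 0 h arrays. The stem cell factor Sox2 was at 7.87 and 7.64, and the eye and pituitary factor Six6 at 9.05 and 9.72. Twist1 (8.45 and 8.24) and Snai2 (7.52 and 8.34), factors of mesenchymal cells, were above log2 6.59, while the mesenchymal filament Vim was at 5.13 and 5.41, against a mean of 13.22 in 3134 cells. None of the tested markers of other pituitary cells, epithelium or fibroblasts was called at 4 h.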
